A study of Mus musculus with 8 samples.

Results

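Myelin-forming oligodendrocytes (MFOL) and mature oligodendrocytes (MOL) are the last stages of the oligodendrocyte lineage annotated in a single-cell RNA-seq dataset of mouse somatosensory and motor cortex. The members were all cells that carry either name in the deposited annotation. There were 398 of them among 60989 cells in the series, 198 MFOL and 200 MOL. All came from wild-type C57BL/6 mice at P21 (postnatal day 21), from 3 libraries that each pooled several animals, with live cells sorted as DAPI-negative and Vybrant DyeCycle Ruby-positive. The libraries carried the numbers 6, 7 and 8 and could not be matched to single samples of that age, and the titles of those samples carry different dates, so that library and date cannot be told apart. The other ages, P1 and P7 (days 1 and 7), came from the same strain and regions and held 0 cells of either stage. That was 0 of 1622 lineage cells at P1, a count that still allows a share of up to 0.185%, and 0 of 214 at P7, where the limit is 1.40%. Both limits cover counting error only.

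Oligodendrocytes wrap axons of the central nervous system in myelin, the membrane sheath that speeds conduction. They arise from oligodendrocyte precursors (OPC), which pass through committed precursors (COP) and newly formed oligodendrocytes (NFOL) before the cells make myelin (MFOL) and reach the mature state (MOL). In the rodent cortex this sequence runs largely after birth. Mog, a protein of the outer face of myelin, and Mbp, which holds its membrane layers together, mark the later stages. No expression values of single genes were analysed here, so the names were not checked against these markers and stand as deposited. They were given from marker genes, after UMI number and mitochondrial share had been regressed out of the data used for clustering. Genes per cell come from the same counts as the clusters. The dissociation, the sort and the limits on cells can all set how many cells of a stage were kept, and fewer cells of a stage cannot be told apart from fewer cells given its name.

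MFOL and MOL together were a small and uneven part of the lineage. Library 6 held 76 MFOL and 47 MOL among 2861 cells, library 7 held 40 and 71 among 2240, and library 8 held 82 and 82 among 4864. Both stages were thus present in every P21 library. Together they made up 4.30% of cells in library 6 (exact 95% binomial interval 3.59 to 5.11), 4.96% in library 7 (4.09 to 5.94) and 3.37% in library 8 (2.88 to 3.92), or 4.21% ± 0.796 (SD, n = 3). These intervals cover counting error only. Within the lineage they made up 6.25%, 9.73% and 7.85% of cells, or 7.94% ± 1.74 (SD, n = 3). Their share of a library's UMIs (unique molecular identifiers, which count distinct captured transcripts) was higher than their share of its cells in each case, at 8.51%, 11.6% and 7.41%.

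The ratio of MOL to MFOL differed between libraries. It was 0.618 in library 6, 1.78 in library 7 and 1 in library 8, with exact 95% intervals of 0.420 to 0.901, 1.19 to 2.68 and 0.727 to 1.38. MFOL outnumbered MOL in library 6, and MOL outnumbered MFOL in library 7. The mean log2 ratio was 0.04 ± 0.76 (SD, n = 3), so the spread between libraries was far larger than the mean. A Fisher's exact test over the 3 libraries, which compares these libraries and not conditions, gave p = 0.000428. That test takes cells as independent and covers counting error only. By pairs, libraries 6 and 7 differed (adjusted p = 0.000267, Fisher's exact test with Benjamini-Hochberg adjustment over the 3 pairs), as did libraries 7 and 8 (adjusted p = 0.0391, Fisher's exact test), while libraries 6 and 8 did not pass (adjusted p = 0.0552, Fisher's exact test). The call thus rests on library 7, without which the log2 ratio stood at -0.35 and the exact test was not passed.

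The number of later cells per NFOL cell, the stage just before them, differed between libraries as well. There were 322 NFOL cells in library 6, 132 in library 7 and 146 in library 8. MFOL and MOL together stood at 0.382 cells per NFOL cell in library 6, 0.841 in library 7 and 1.12 in library 8 (p = 2.00e-12, Fisher's exact test over libraries). MFOL alone stood at 0.236, 0.303 and 0.562 cells per NFOL cell in libraries 6, 7 and 8, and MOL alone at 0.146, 0.538 and 0.562. Library 6 was lowest by both counts.

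**Figure D1:**
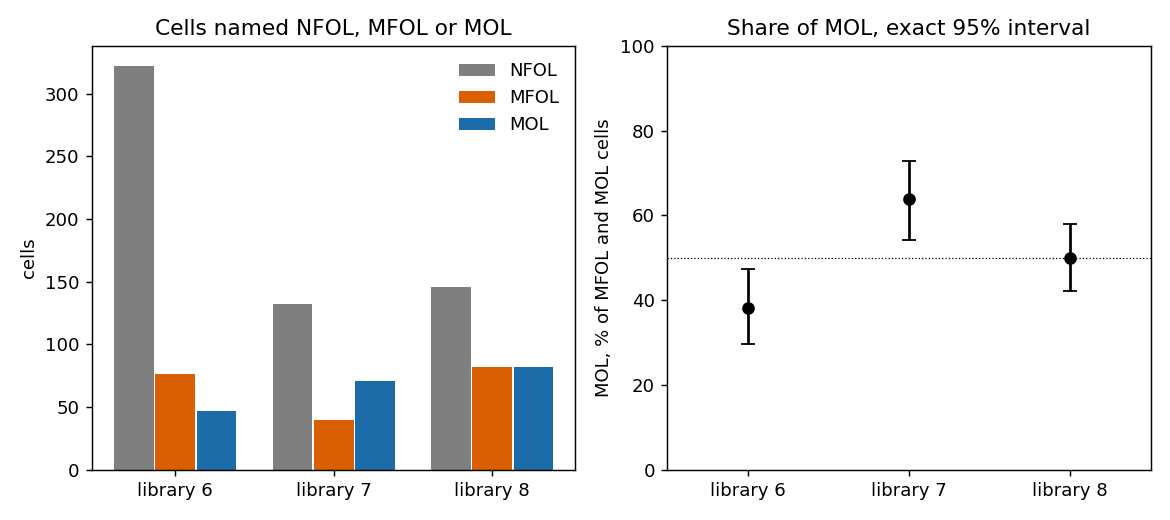
Left, number of cells (vertical axis) named NFOL, MFOL or MOL in each P21 library. Right, MOL as a percentage of MFOL and MOL cells with its exact 95% binomial interval, the dotted line marking 50%: the interval of library 6 lies below that line (38.2%), that of library 7 above it (64.0%), and library 8 sits on it.

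MFOL and MOL cells carried nearly the same number of transcripts. Median UMIs per MFOL cell were 7080 in library 6, 8369.5 in library 7 and 7955 in library 8, or 7802 ± 658 (SD, n = 3). Median UMIs per MOL cell were 7323, 8327 and 8215, or 7955 ± 550 (SD, n = 3). MOL minus MFOL was 243 UMIs in library 6, -42.5 in library 7 and 260 in library 8, and the mean of 153.5 ± 170 (SD, n = 3) was smaller than its spread. A pair of stages cannot pass over 3 libraries, since the exact sign-flip permutation test (two-sided) allows p = 0.25 at best, and this difference gave p = 0.5. Taking a MOL and an MFOL cell of the same library at random, the MOL cell held more UMIs in 51.4%, 49.9% and 56.8% of such pairs.

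Genes per cell were close between the stages as well. The median was 2451, 2585 and 2577 genes in MFOL of libraries 6, 7 and 8 and 2393, 2530 and 2625.5 in MOL. MOL stood 58 and 55 genes below MFOL in libraries 6 and 7 and 48.5 above it in library 8, a mean of -21.5 ± 60.6 (SD, n = 3; p = 0.5, exact sign-flip permutation test). The libraries do not share a direction, and with means over cells the difference turned to 21.8 genes.

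The range of values over cells was narrower in MOL than in MFOL, which pools 2 clusters. The interquartile range of UMIs was 24.3%, 24.4% and 23.6% of the median in MOL of libraries 6, 7 and 8, and 29.9%, 35.1% and 32.6% in MFOL. For genes per cell it was 13.0%, 16.4% and 15.6% in MOL and 18.6%, 17.6% and 19.0% in MFOL. In NFOL the range of UMIs was wider again, at 56.2%, 51.1% and 46.2% of the median. The range narrowed from NFOL to MFOL to MOL in all 3 libraries for both measures, which is given as a description with no test. Taken alone, the larger MFOL cluster (numbered 71) had a UMI range of 27.3%, 48.2% and 32.0% of its median, wider than MOL in each library. The smaller one (72) had 25.02%, 16.2% and 48.6% on 24, 13 and 8 cells, narrower than MOL in library 7. Few cells sat near the limits set by the authors. In MFOL 13 cells and in MOL 6 cells had under 1500 genes, with 1000 genes as the minimum for inclusion. Over 14000 UMIs, just under the maximum of 15000, there were 0 MFOL cells and 1 MOL cell.

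Against NFOL of the same library, the direction of the UMI difference depended on the library. NFOL cells had a median of 5267.5 UMIs in library 6, 6731 in library 7 and 8864 in library 8. MFOL held 1.34 and 1.24 times the NFOL level in libraries 6 and 7 and 0.897 times that level in library 8. MOL held 1.39, 1.24 and 0.927 times the NFOL level. The stage that moved between libraries was NFOL, whose highest library median was 1.68 times its lowest, against 1.18 times in MFOL and 1.14 times in MOL. NFOL held the fewest UMIs in library 6, which also had the most NFOL cells. MOL minus NFOL averaged 1001 ± 1447 UMIs (SD, n = 3), and the 3 stages did not pass the exact permutation test of stage names within libraries (p = 0.278, adjusted p = 0.370 over 4 measures).

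Genes per cell followed the same pattern. NFOL cells had medians of 2216.5, 2519 and 2982.5 genes, so that MOL minus NFOL was 176.5 genes in library 6, 11 in library 7 and -357 in library 8. The mean difference was -56.5 ± 273 genes (SD, n = 3), and it became 93.75 without library 8. The 3 stages gave an adjusted p of 0.944 in the exact permutation test.

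**Figure D2:**
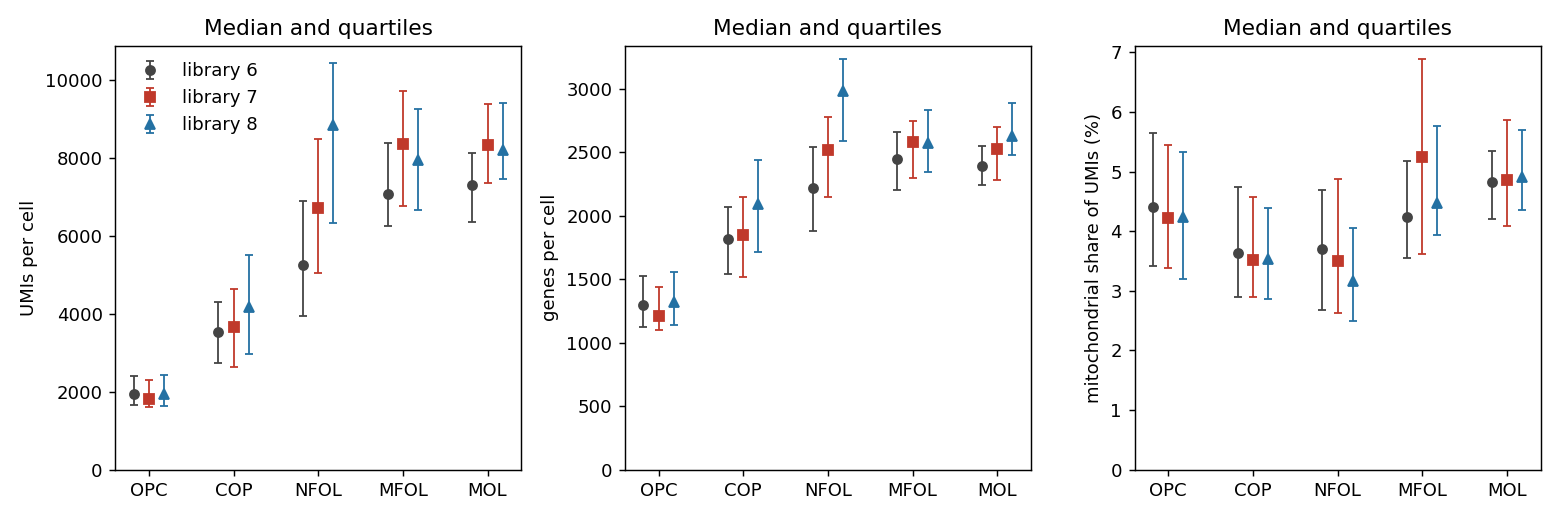
Median UMIs per cell (left), genes per cell (middle) and mitochondrial share of UMIs in percent (right) for the 5 lineage stages at P21; points are the medians of each library and bars run from the lower to the upper quartile over cells. MFOL and MOL medians lie between 7080 and 8369.5 UMIs, while NFOL runs from 5267.5 in library 6 to 8864 in library 8.

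At equal UMIs, fewer genes were detected in MFOL and MOL cells than in NFOL cells in every library. Genes per cell grow with depth, so a line of log2 genes on log2 UMIs with a common slope was fitted in each library, and the level of each stage was read at 7887 UMIs, the median of MFOL and MOL cells. NFOL stood at 2765 genes in library 6, 2711 in library 7 and 2784.5 in library 8. MFOL stood at 2549, 2475 and 2592 genes. MOL stood lowest, at 2512, 2417 and 2573 genes. No library of MFOL or MOL reached the lowest NFOL level.

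The change from NFOL to MFOL was -7.79%, -8.70% and -6.92% in libraries 6, 7 and 8, a mean difference of -215 ± 21.5 genes (SD, n = 3). From NFOL to MOL it was -9.13%, -10.8% and -7.59%, a mean of -252 ± 41.0 genes (SD, n = 3). Between the later stages the gap was small but of the same sign, with MOL minus MFOL at -36.9, -57.7 and -18.6 genes. The 3 stages stood in the same order in each library, and the exact permutation test of stage names within libraries gave p = 0.0278, the smallest it can give. After adjustment over the 4 measures this was 0.111, so the threshold of 0.05 was not passed. Lines with a slope of their own for each stage gave a MOL minus NFOL difference of -250 genes, and bins of like UMIs gave -200 (-199.6). Among cells holding 6000 to 10000 UMIs (a range set once the values were known), MOL medians were 2437.5, 2526 and 2611 genes and NFOL medians 2608, 2669.5 and 2916.5.

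**Figure D3:**
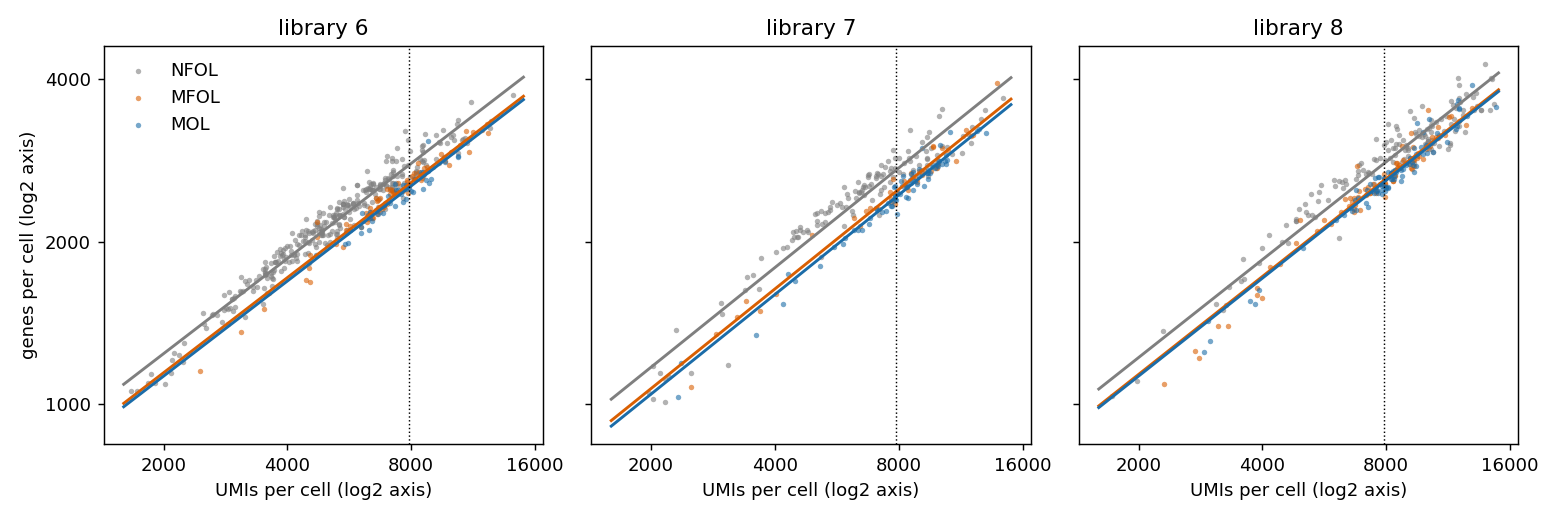
Genes per cell (vertical axis, log2) against UMIs per cell (horizontal axis, log2) for NFOL, MFOL and MOL cells of each P21 library; points are cells, lines are the common-slope fits and the dotted line marks 7887 UMIs. The MFOL and MOL lines run close together below the NFOL line, 215 and 252 genes lower on average at that depth.

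Set among all P21 types with at least 20 cells, MFOL and MOL had the fewest genes for their UMIs. They held 34.1, 30.8 and 33.0 genes per 100 UMIs in MFOL of libraries 6, 7 and 8 and 33.4, 30.4 and 31.9 in MOL, the lowest values of the 12, 9 and 12 types compared. By UMIs they were the top pair in libraries 6 and 7, and ranked 5 and 4 of 12 in library 8, where layer IV neurons led with 9080.5. Genes per 100 UMIs fall as depth grows, so depth enters this order. Within the window of 6000 to 10000 UMIs, MFOL and MOL were still the 2 lowest types in genes in library 6 and in library 8, of 8 types with at least 10 cells in each. In library 7, with 4 such types, MOL was lowest and COP, at 2572.5 genes, fell just below MFOL at 2585. Depth still differed inside the window. In library 7 the COP cells in it had a median of 6454.5 UMIs and the MFOL cells 8369.5.

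The mitochondrial share of UMIs was higher in MFOL and MOL than in NFOL in all 3 libraries. These transcripts come from the mitochondrial genome, which encodes subunits of the respiratory chain. NFOL medians were 3.70%, 3.50% and 3.16% in libraries 6, 7 and 8. MFOL medians were 4.24%, 5.24% and 4.48%, or 4.65% ± 0.527 (SD, n = 3). MOL medians were 4.83%, 4.87% and 4.92%, or 4.87% ± 0.0443 (SD, n = 3). The groups of library medians did not overlap between NFOL and either later stage, while MFOL and MOL overlapped.

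MOL exceeded NFOL by 1.13, 1.36 and 1.75 percentage points, or 1.42 ± 0.314 (SD, n = 3). MFOL exceeded NFOL by 1.20 ± 0.609 points (SD, n = 3). MOL minus MFOL was 0.594 and 0.441 points in libraries 6 and 8 and -0.377 in library 7, a mean of 0.219 ± 0.522 (SD, n = 3; p = 0.5, exact sign-flip permutation test). The sign in library 7 depended on the setting. It was -0.267 with means over cells, but 0.0107 among cells with at least 1500 genes. Among cells with a share under 5%, a limit on the measure itself, it was 0.544. The exact permutation test over the 3 stages gave p = 0.0556 and an adjusted p of 0.111. In cells with 6000 to 10000 UMIs the MOL minus NFOL difference was 1.53 ± 0.326 points (SD, n = 3), so it was as large at like depth. A MOL cell exceeded an NFOL cell of its library in 71.98%, 74.2% and 85.4% of all such pairs, and an MFOL cell did so in 63.4%, 73.7% and 80.9%. Of MOL cells, 88 of 200 (44.0%) held 5% or more, and of MFOL cells 77 of 198 (38.9%), against 111 of 600 NFOL cells (18.5%).

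MFOL cells with few UMIs tended to have a high mitochondrial share. Across MFOL cells, Spearman's rho between UMIs and mitochondrial share was -0.36 in library 6 (76 cells), -0.52 in library 7 (40 cells) and -0.67 in library 8 (82 cells), and Pearson's r was -0.43, -0.56 and -0.70. Across MOL cells rho was -0.09, -0.34 and -0.29, and across NFOL cells -0.19, -0.03 and 0.04. The correlation was most negative in MFOL in each library. UMIs are the denominator of the mitochondrial share, and the cells of a library share its preparation, so these are descriptions over cells.

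MFOL was made of 2 clusters of unequal size, and MOL of a single cluster. The deposited numbers are 71 and 72 for the MFOL clusters and 70 for MOL. The sources used here do not state how clusters were numbered, so it is not known whether these 3 were split from a single cluster, nor whether NFOL (40) and a COP cluster (41) were. Cluster 71 held 153 cells, with 52, 27 and 74 in libraries 6, 7 and 8, and cluster 72 held 45, with 24, 13 and 8. Cluster 72 was 31.6% of MFOL in library 6 (exact 95% interval 21.4 to 43.3), 32.5% in library 7 (18.6 to 49.1) and 9.76% in library 8 (4.31 to 18.3). That share differed between libraries (p = 0.000728, Fisher's exact test), and library 8 was the low one.

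Cells of cluster 72 held more UMIs than those of cluster 71 in each library. Median UMIs in cluster 72 were 8539.5, 9135 and 8447.5, and in cluster 71 they were 6676.5, 7649 and 7933. The mean difference was 1288 ± 696 UMIs (SD, n = 3), with 219 ± 109 more genes (SD, n = 3), each higher in 3 of 3 libraries. Both differences gave p = 0.25, the smallest that the exact sign-flip permutation test allows over 3 libraries. The clusters, like the stages, were formed on the expression of these same cells. MOL lay between the clusters in both measures, with MOL minus cluster 71 at 535.5 ± 220.1 UMIs and MOL minus cluster 72 at -752 ± 494 (SD, n = 3 each). The MOL minus MFOL differences in UMIs and in genes per cell above therefore average a positive and a negative one. Only 8 cells stand behind the library 8 value of cluster 72. In mitochondrial share MOL exceeded cluster 72 by 0.586, 0.742 and 0.712 points, a mean of 0.680 ± 0.0827 (SD, n = 3). Cluster 71 was as high as 5.57% in library 7 and 4.20% and 4.51% in libraries 6 and 8, so the high MFOL value of library 7 was that of cluster 71.

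**Figure D4:**
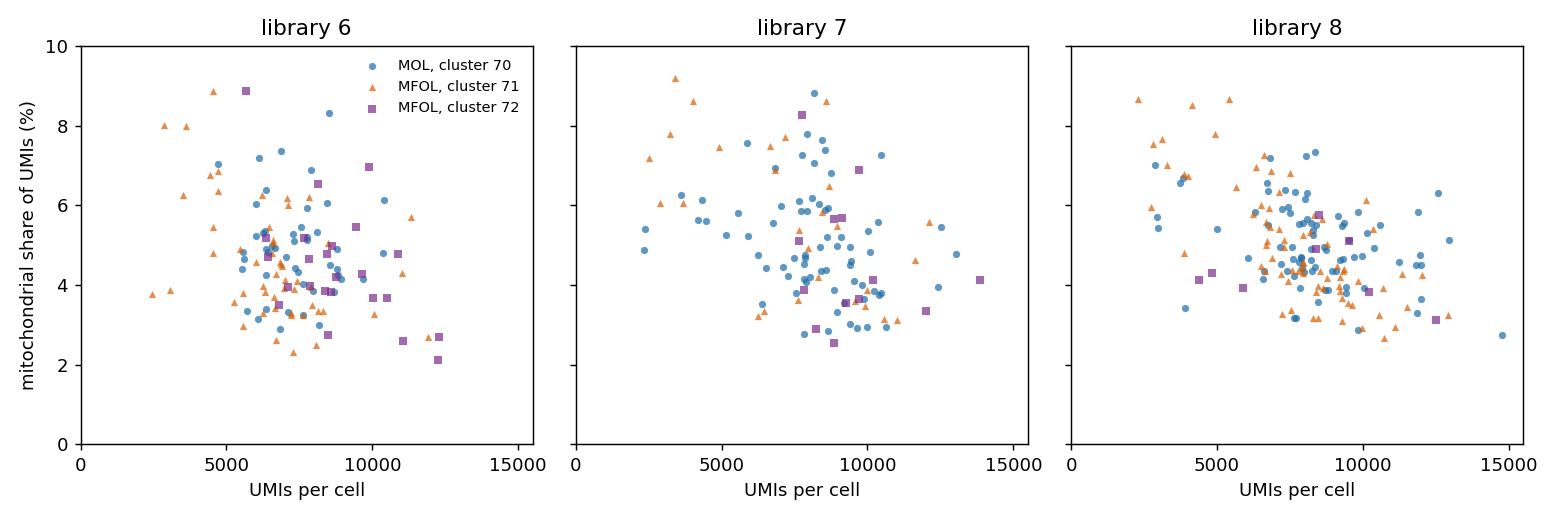
Mitochondrial share of UMIs (vertical axis, percent) against UMIs per cell (horizontal axis) for MOL (cluster 70) and the MFOL clusters 71 and 72 in each P21 library; every point is a cell. Cluster 71 has cells at low UMIs and high mitochondrial share, and cluster 72 sits at higher UMIs, with library medians from 8447.5 to 9135.

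Over the 5 stages of the lineage at P21, MFOL and MOL stood at the upper end of transcripts and the lower end of genes at equal UMIs. OPC medians ran from 1817 to 1951 UMIs over libraries and COP medians from 3542 to 4183.5, all below every NFOL, MFOL and MOL library. The rank of the library medians followed stage order in an exact permutation test within libraries (two-sided, adjusted over 4 measures), with a mean Spearman's rho over libraries of 0.87 for UMIs (adjusted p = 0.00130, exact permutation test) and 0.83 for genes (adjusted p = 0.00193, exact permutation test). Most of that order came from OPC and COP, since NFOL, MFOL and MOL changed places between libraries. Genes at equal UMIs, here fitted over the 5 stages and read at 3409 UMIs, fell at every step in every library, with rho of -1 (adjusted p = 4.63e-06, exact permutation test). With a slope of its own for each stage the mean rho was -0.97 (adjusted p = 6.02e-05, exact permutation test), so not every step fell in every library under that fit. The common-slope means were 1851 ± 39.5 in OPC, 1790 ± 34.3 in COP, 1626 ± 21.1 in NFOL, 1490 ± 27.5 in MFOL and 1464 ± 36.8 in MOL (SD, n = 3 each). The ranges of UMIs between quartiles did not overlap between OPC and MOL in any library, so this fit spans depths that few cells of both reach. The lower quartile of MOL ran from 6355 to 7466.5 UMIs over libraries, and the lowest MOL cell of library 6 held 4695. The MOL level at 3409 UMIs was therefore largely extrapolated, and in library 6 wholly so.

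The mitochondrial share did not follow stage order (mean rho 0.50, adjusted p = 0.0952, exact permutation test). It stood at 4.29% ± 0.0976 in OPC, lower in COP at 3.56% ± 0.0595 and NFOL at 3.46% ± 0.270, and higher again in MFOL and MOL (SD, n = 3 each). Among cells with at least 1500 genes, which leaves out 71.7% of OPC, the order did pass (rho 0.67, adjusted p = 0.0194, exact permutation test).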

How the data were processed

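The deposited table gave, for each cell, UMIs as counts, the number of genes detected as a whole number of no further unit, and the mitochondrial UMIs as a fraction of all UMIs, printed here in percent, beside age, cluster and cell type. Per the labels and the study's methods, 10x Genomics 3' v2 reads were processed in Cell Ranger 3.0.1 against mm10. The authors joined the libraries, reduced the deeper ones towards equal coverage, and kept cells with 1000 to 6000 genes, at most 15000 UMIs and under 10% mitochondrial UMIs. All cells lay within these limits. UMIs per cell thus depend on that reduction. No doublet caller was run here, and the sources used here do not state one. Clusters were formed in Seurat at each age.

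The number after each barcode names a library, and each library held 1 age. Of the 398 cells, 26 had a barcode also found in another library, 0 of these in an MFOL or MOL cell. P21 libraries held 2240 to 4864 cells and 7751963 to 17811960 UMIs. Each library gave 1 value per stage, the median over cells or, for genes at matched UMIs, the fitted level. The permutation p-values give the share of reassignments of stage names or signs with a statistic at least as extreme as observed. Their units are libraries, not cells. Stage names were permuted within libraries over all assignments (exact, two-sided), with Benjamini-Hochberg adjustment over 4 measures and a threshold of 0.05. Cell numbers were compared with Fisher's exact test, which takes cells as independent, so its p-values cover counting error only. Alternatives were means, log2 medians, cells with at least 1500 genes or under 5% mitochondrial share, a slope per stage, bins of 0.25 in log2 UMIs, no block for library and leaving out each library. A window of 6000 to 10000 UMIs and each MFOL cluster alone were added after the data were seen. The stages and measures were chosen with earlier results of these data known. The columns described above were the ones used, and all 5 lineage stages are named. The permutation test and the matched fit were tested on simulated data. Software was scipy 1.17.1, numpy 2.4.6, matplotlib 3.10.9 and pandas 2.3.3 under Python 3.11.15.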

Additional observations from a re-analysis of the deposited data

How the results depend on the processing

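With 3 libraries, exact permutation tests within libraries reach p = 0.0278 at best over 3 stages and p = 0.167 with a library left out, so the latter cannot pass. Depth could not be thinned per cell, as no expression values were analysed. Under the settings listed for the methods (without the UMI window and single MFOL clusters), 84 values of the tested comparisons neither turned nor changed their side of the threshold, 5 turned and 3 newly passed. The MOL to MFOL ratio without library 7, counted as turned, also lost its call (p = 0.0552, Fisher's exact test). That test does not assess the sign of the mean log2 ratio. Pairs of stages (p = 0.25 at best, exact permutation test), and the 3 stages with a library left out, could not pass under any setting, so their place in that count says nothing of stability. The 3 stages within libraries could pass only with several measures at the smallest p at once, so an unchanged call there says little. Without the replicate block, that is with stage names permuted over all libraries, genes at matched UMIs (MOL minus NFOL -252) and mitochondrial share (1.42 points) both passed (adjusted p = 0.0429, exact permutation test), and no other call changed. Mitochondrial share over 5 stages passed among cells with at least 1500 genes (rho 0.67).

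MOL minus MFOL in genes turned to 21.8 with means over cells and to 63.8 with MFOL cluster 71 alone. MOL minus MFOL in UMIs turned to -278 among cells with a mitochondrial share under 5%, which keeps 61.1% of MFOL and 56.0% of MOL, and to -752 with cluster 72 alone. MFOL minus NFOL in genes turned to 39.8 under that 5% limit and to 98.8 with cluster 72 alone. Without library 8, MFOL minus NFOL and MOL minus NFOL in genes turned to 150.25 and 93.75. The log2 ratio of MOL to MFOL turned to -0.002 (-0.00198) under the 5% limit. The causes were not tested.

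Leaving out a library gave ranges of -0.35 to 0.41 for the log2 MOL to MFOL ratio (p = 0.0552 without library 7, Fisher's exact test) and of -173 to 93.75 genes for MOL minus NFOL and -169.75 to 150.25 for MFOL minus NFOL. For MOL minus NFOL they were 473.5 to 1826 UMIs, -273 to -232 genes at matched UMIs and 1.25 to 1.56 points of mitochondrial share. UMI bins over the 5 stages could not be fitted, as library 7 had 0 bins with 3 cells of each stage.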
